A study of Mus musculus with 6 samples.

Results

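The 43 genes described here encode proteins that divide a cell: mitotic kinases, regulators of the anaphase promoting complex, spindle and centrosome proteins, cytokinesis proteins, and subunits of condensin and cohesin. They were taken by name, without a rule on their values, but with earlier results of these data known. The source was the 20659 genes that had a named probe on the arrays, and each of the 43 had at least 1 probe. Signals came from 6 one-colour Agilent arrays. The RNA was from mouse liver cells sorted for CD63, a tetraspanin membrane protein, and then kept in culture. In the DDC injury group (3 arrays) the livers had been injured with DDC, a porphyrinogenic compound that causes cholestatic damage, and in the no-injury group (3 arrays) they had not. The described culture medium, common to both groups, held serum, HGF, EGF, insulin and dexamethasone, so all values are of cultured cells. A further addition, VEGF with bFGF, is described only for cultures under names that the titles do not use, and which arrays received it is unknown. Those names share numerals with the deposited names of 2 no-injury arrays, which does not settle it; if the addition went to 1 group, it cannot be told apart from the injury. The labels give neither strain nor age, nor how many animals or cell lines lie behind each group, while 6 cell lines are mentioned in the series' design text. Where separate cultures are not documented, a p-value measures only the spread between these samples.

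In a dividing cell, condensin compacts the chromosomes and cohesin holds the sister chromatids together until anaphase. The anaphase promoting complex then marks securin for destruction, which frees separase to cut cohesin, and a contractile ring with the central spindle separates the daughter cells. Many of these genes are silent in resting cells and are transcribed late in the cycle through promoters that carry CHR elements, which the DREAM and MuvB complexes bind, and CCAAT boxes, which NF-Y binds. Cohesin subunits are also needed outside mitosis for chromatin looping. In a healthy adult liver few cells divide, while injury can bring hepatocytes and biliary cells back into the cycle.

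The promoters are shown here because the genes moved together in the comparison described below. RefSeq windows of assembly GRCm38.p6, from 250 bases before to 50 bases after the annotated start, were found for 39 of the 43 genes, 5 of them with 2 windows. The letters TTTGAA, the core of a CHR element, stood on either strand in 24 of the 39 genes (61.5%), against 20.2% of the 27025 genes with a window and 15.5% of the 12389 genes with a window that were tested on the arrays. The letters CCAAT stood in 25 of the 39 (64.1%), against 41.1% and 42.7%, and both motifs stood in 20 of the 39 (51.3%), against 8.97% and 7.56%. In the stretch from 100 bases before to 50 after the start, TTTGAA was found in 21 of the 39 genes and in 6.41% of the tested genes. By role, among genes with a window, TTTGAA was present in Mki67 and Top2a, 2 of 5 mitotic kinases and 5 of 8 anaphase promoting complex regulators. It was present in 5 of 9 spindle and centrosome genes, 5 of 6 cytokinesis genes, 5 of 7 condensin genes and neither of the 2 cohesin genes. In the shorter stretch the condensin count was 3 and the spindle and centrosome count 4, and the other counts were the same. The variant TTCGAA was found in 3 of the 39 genes, against 1.8% of all genes with a window and 2.35% of those tested. The E2F-type letters TTTGGCG and TTTCCCG were found in 2 and 6 of the 39. Their shares were 1.77% and 3.92% of all genes with a window, and 2.67% and 5.84% of those tested. Both strands were searched, TTCGAA reads the same on both, neighbouring matches of different motifs may share a base, and a match is a description of letters.

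The 100 bases before the start are printed 5′ to 3′ on the gene's strand for 4 genes that rose and hold TTTGAA there, the largest differences of their roles among such genes. They are also printed for 2 of the 4 genes that did not pass the test. Since the rising genes were picked for holding TTTGAA, the contrast between the printed genes is set by that choice. Of the genes that did not pass, Ncaph2, not printed, holds the variant TTCGAA at -22. Capitals mark TTTGAA and CCAAT on either strand, so that TTCAAA and ATTGG are their reverse complements.
Ube2c: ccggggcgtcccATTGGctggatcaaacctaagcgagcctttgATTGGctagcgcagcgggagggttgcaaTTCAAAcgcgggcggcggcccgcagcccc
Ckap2l: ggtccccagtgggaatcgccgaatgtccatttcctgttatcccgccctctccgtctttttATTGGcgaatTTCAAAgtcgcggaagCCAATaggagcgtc
Ncapg: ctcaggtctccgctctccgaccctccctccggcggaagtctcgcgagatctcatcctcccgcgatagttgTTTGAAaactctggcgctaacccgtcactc
Mki67: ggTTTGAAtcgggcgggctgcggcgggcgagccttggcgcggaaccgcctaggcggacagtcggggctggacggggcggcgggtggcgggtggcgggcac
Fzr1: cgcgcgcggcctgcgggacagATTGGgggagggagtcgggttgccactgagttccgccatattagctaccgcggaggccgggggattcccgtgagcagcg
Smc3: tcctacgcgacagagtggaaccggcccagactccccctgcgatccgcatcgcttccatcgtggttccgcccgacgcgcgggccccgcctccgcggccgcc
The stretches lie at chr2:164769829-164769928 on the plus strand (Ube2c), chr2:129297213-129297312 on the minus strand (Ckap2l), chr5:45669825-45669924 on the plus strand (Ncapg), chr7:135716380-135716479 on the minus strand (Mki67), chr10:81378371-81378470 on the minus strand (Fzr1) and chr19:53600296-53600395 on the plus strand (Smc3). In Ube2c the CHR letters began at position -29 and the CCAAT matches at -57 and -88, in Ckap2l at -30 and in Ncapg at -30. Fzr1 held a CCAAT match at -79 and no TTTGAA, and the Smc3 stretch held neither.

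**Figure D1:**
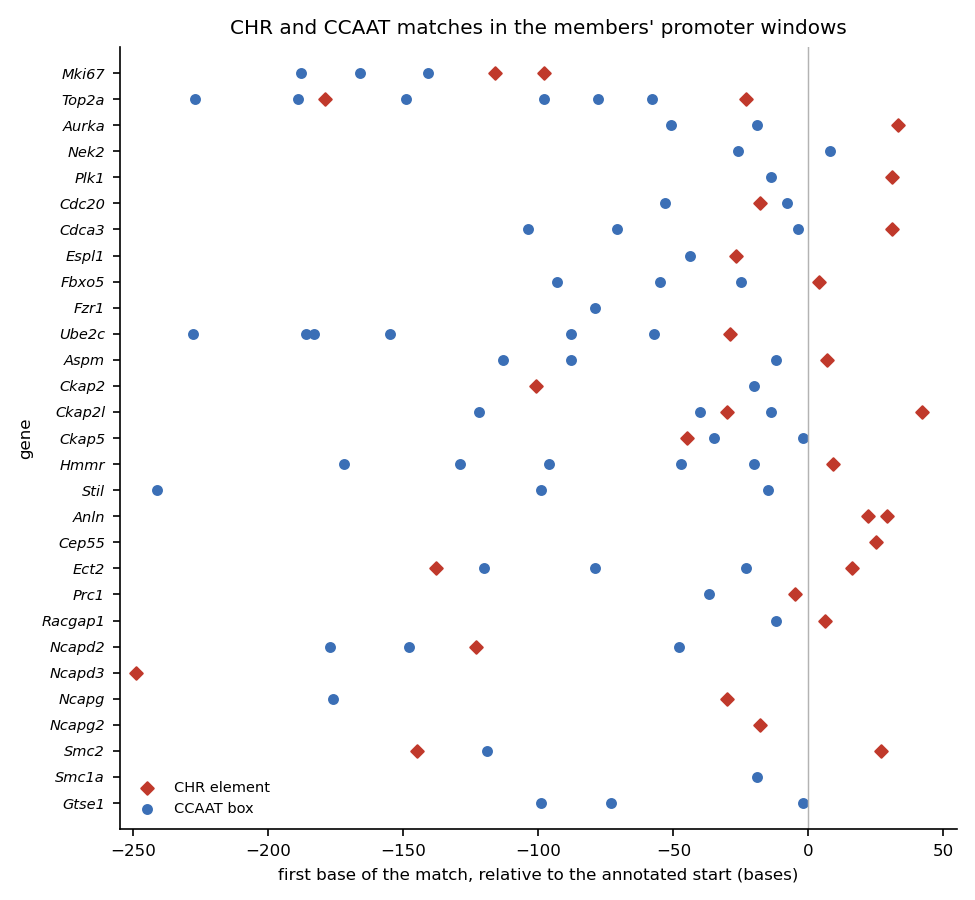
Position of TTTGAA (CHR, red diamonds) and CCAAT (blue circles) matches on either strand in the promoter windows of the 29 members that hold at least 1 of them, by role. The horizontal axis gives the first base of the match relative to the annotated start, in bases, and members with 2 windows are drawn with the window of lowest coordinate among those that hold a match (for Ncapd3, the later of its windows). In 21 members a TTTGAA match lies between 100 bases before and 50 bases after the start.

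The 75th percentile of the signal was 1441 to 2271 intensity units, 63.5% to 74.2% of probes were well above background, and no spot was saturated. On 136 bright probes, each printed 10 times, replicates 1 and 3 of the no-injury group differed by no more than their repeated spots did (chi-square 145 on 135 degrees of freedom, p = 0.263). They were averaged and counted as 1 sample, so the comparison is of 3 DDC injury with 2 no-injury samples. When dimmer probes were included (255 in all), the same arrays differed by 1.25 times the spot noise, more than it allows. Over the bright probes, no-injury replicate 2 differed from the others by 1.69 and 2.1 times the spot noise, and DDC injury arrays from each other by 5.39 to 17.9 times. Arrays were scanned in 3 runs and no run mixed the groups: scan and group cannot be told apart. The sorting marker Cd63 was well above background on all 6 arrays and did not differ (-0.11 ± 0.17, SE, adjusted p = 0.659 in limma). All 8 cholangiocyte and progenitor markers were above background on all 6 arrays, with a summed level of 51.1 to 56.3 times the 75th percentile in the DDC injury group and 64.3 to 66 in the no-injury group. Of these, 4 were lower and none higher. Prom1 fell by 8.69, Epcam by 2.58 and Sox9 by 1.57, while Krt19 (0.37, adjusted p = 0.243 in limma) did not pass. For 8 hepatocyte markers, 4 of them above background on every array, the summed level was 11.1 to 17.7 against 29.8 to 34.1, a sum in which dim genes weigh little. Of the 8, 5 were lower and none higher: Alb fell by 6.14, Ttr by 3.94 and Serpina1a by 1.94, and Apoa1 and Fga, not well above background on any DDC injury array, were at least 42.7-fold and 22.2-fold lower. Hnf4a (-0.09, adjusted p = 0.746 in limma) did not pass. For 8 macrophage and leukocyte markers it was 2.97 to 6.46 against 7.6 to 7.92, with Itgam lower, for 6 endothelial markers 0.17 to 0.548 against 0.518 to 0.785, for 8 stellate and fibroblast markers 0.21 to 0.905 against 0.329 to 0.487, with Des above background on none, and for 6 mesothelial markers 44.6 to 48.7 against 24.4 to 41.3. The mesothelial sum and the single genes went different ways: of 5 tested, Wt1 and Upk3b were lower and Podxl higher, with a median difference of -3.28, while the bright Msln (0.15, adjusted p = 0.467 in limma) did not pass and Krt8 was not tested. The part of these shifts in the differences below was not tested.

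Of the 43 genes, 42 could be tested, 38 were higher in the DDC injury group and none was lower. Across all 15617 genes tested, 17.7% were higher and 15.8% lower (33.5% in either direction), at an adjusted p under 0.05 (limma, Benjamini-Hochberg over all genes). The median difference of the 42 genes was 3 on the log2 scale and that of all genes tested -0.07. No member had a difference below 0. All 38 called genes were at least 2-fold higher, against 8.62% of all genes tested, and 21 were at least 8-fold higher, against 1.61%. Of the 42, Cit passed the filter on dim probes through its DDC injury arrays alone; among genes above background on all 6 arrays, 37 of 41 members were higher, with a median of 3.04, against 22.1% of all genes. Levels are given as log2 signal relative to the array's 75th percentile, differences as the DDC injury level minus the no-injury level, with the standard error of the fit. Counted as 3 DDC injury and 2 no-injury samples, all 42 genes were higher without overlap, including the 4 that did not pass. By the same count, 32.6% of all genes tested were higher and 33.2% lower without overlap. On the single arrays, the 3 DDC injury values also lay above the 3 no-injury values for each of the 42 genes. That is a stricter count, and its share over all genes was not computed. A larger share of dividing cells and more mRNA per dividing cell cannot be told apart in such bulk samples.

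**Figure D2:**
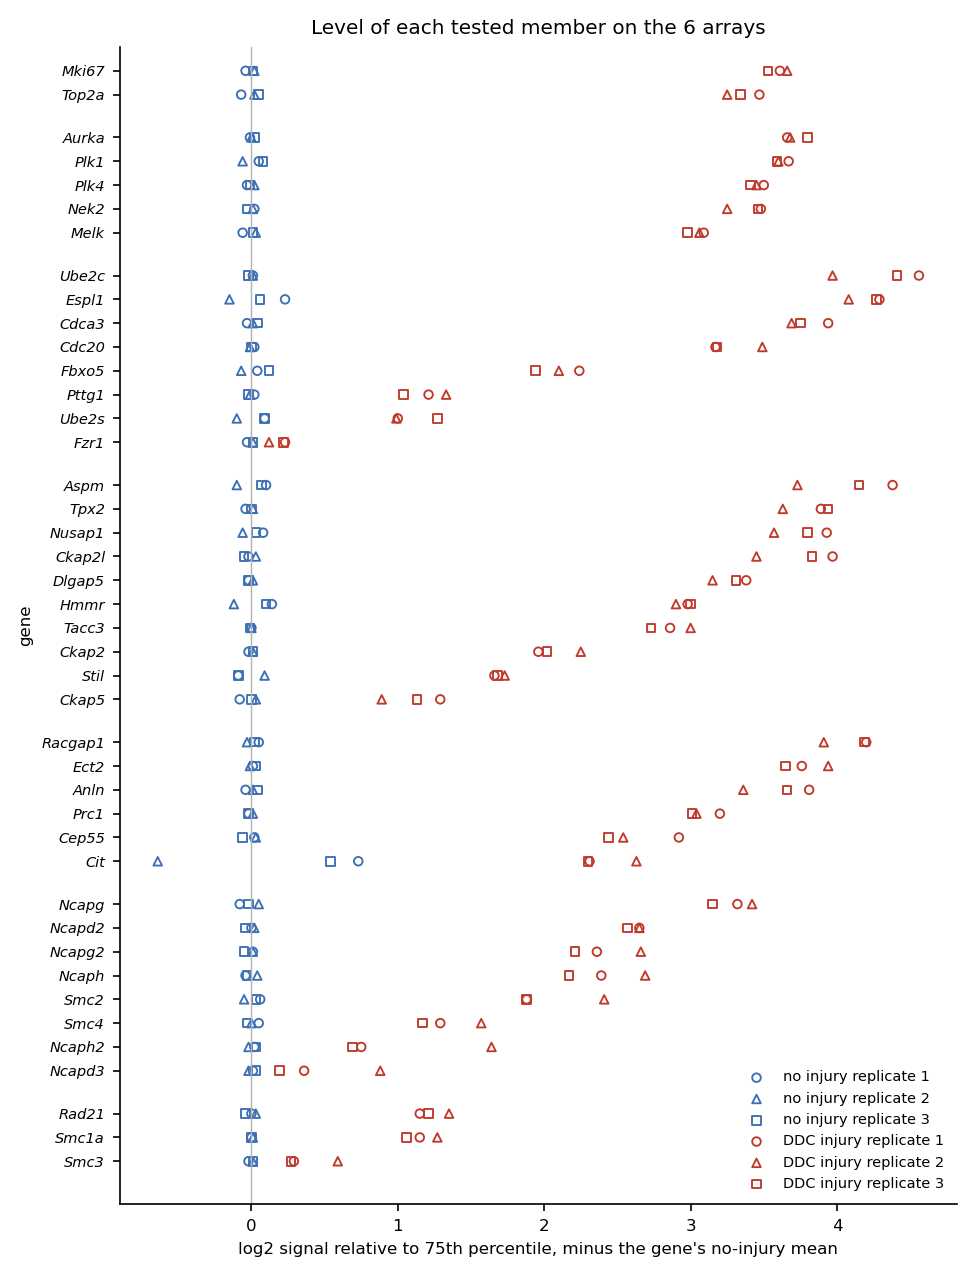
Level of each of the 42 tested genes on the 6 arrays, as log2 signal relative to the array's 75th percentile minus the gene's no-injury mean; genes are grouped by role and ordered by difference. Blue symbols are no-injury arrays and red symbols DDC injury arrays, with a circle, triangle and square for replicates 1, 2 and 3. The red symbols lie right of the blue ones in every row, and the blue symbols of Cit spread over 1.37. The fitted differences run from 0.19 in Fzr1 to 4.31 in Ube2c.

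The proliferation antigen Mki67, which coats mitotic chromosomes and keeps them apart, was at 3.76, 3.81 and 3.68 on the DDC injury arrays and at 0.11, 0.17 and 0.16 on the no-injury arrays. All DDC injury values lay far above the others, and the gene rose by 3.6 ± 0.10 (12.1-fold, adjusted p = 0.000586 in limma). Its other probe differed by 3.57. Top2a, the topoisomerase that untangles sister DNA molecules, was at 1.5, 1.28 and 1.37 against -2.04, -1.95 and -1.92, and rose by 3.35 ± 0.11 (10.2-fold).

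The 5 mitotic kinases rose within a narrow range of differences, from 3.04 to 3.71 on the log2 scale, with adjusted p of 0.000586 to 0.000643 in limma. Plk1, which drives mitotic entry and centrosome maturation, was at 2.23, 2.16 and 2.15 on the DDC injury arrays and at -1.39, -1.5 and -1.36 on the no-injury arrays. Replicates of each group agreed to within 0.14, and the difference was 3.62 ± 0.10 (12.3-fold). Aurka, a kinase of the spindle poles, was at 2.16, 2.18 and 2.30 against -1.51, -1.5 and -1.48 (difference 3.71 ± 0.10). Plk4, the kinase that starts centriole duplication, differed by 3.46 ± 0.09, Nek2, which separates the centrosomes, by 3.39 ± 0.12, and Melk, a maternal embryonic kinase often raised in dividing cells, by 3.04 ± 0.10. The spread between replicates was small beside each of these differences.

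Regulators of the anaphase promoting complex, a ubiquitin ligase, listed with separase, securin and Cdca3, differed by 0.19 to 4.31, with 7 of 8 higher. Ube2c, the E2 enzyme that starts ubiquitin chains on its substrates, differed by 4.31 ± 0.21 (19.9-fold, adjusted p = 0.0012 in limma), the largest difference of the 42 genes at this scaling. Espl1 came above it with quantile normalization (4.37) and with probes averaged (4.21), and Aspm with normexp (4.02) and in the authors' values (4.05). Ube2c was at 3.43, 2.84 and 3.28 on the DDC injury arrays and at -1.12, -1.12 and -1.15 on the no-injury arrays, so DDC injury replicate 2 was the lowest of its group and still far above the others. Ube2s, the E2 enzyme that extends those chains, was at 1.94, 1.93 and 2.21 against 1.03, 0.84 and 1.03 and rose by 1.09 ± 0.14 (2.13-fold, adjusted p = 0.00921). The 2 coactivators of the complex also lay far apart in their differences. Cdc20, its coactivator up to anaphase, was at 3.53, 3.85 and 3.54 against 0.38, 0.35 and 0.36 and rose by 3.28 ± 0.14 (9.73-fold, adjusted p = 0.000997). Fzr1, or Cdh1, its coactivator at mitotic exit and in G1, was at 1.01, 0.90 and 1.00 against 0.75, 0.79 and 0.79, a difference of 0.19 ± 0.10 that did not pass (adjusted p = 0.2). The Fzr1 groups did not overlap, but the gap was small, and a further probe differed by 0.09. With normexp background correction and in the authors' values Fzr1 passed, at 0.43 (adjusted p = 0.0369) and 0.40 (0.0324). With array weights it passed at 0.21 (0.0429).

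Separase and its inhibitor differed in the size of their change. Separase, Espl1, which cleaves cohesin at anaphase, was at -0.77, -0.98 and -0.79 on the DDC injury arrays and at -4.83, -5.21 and -5.00 on the no-injury arrays, and rose by 4.21 ± 0.15 (18.6-fold, adjusted p = 0.000643 in limma). Securin, Pttg1, which holds separase inactive, was at 2.73, 2.85 and 2.56 against 1.54, 1.51 and 1.5 and rose by 1.2 ± 0.13 (2.29-fold, adjusted p = 0.00565), with 1.12 at its other probe. These are separate probes, and the difference between the genes was not tested. Fbxo5, or Emi1, an inhibitor of the complex before mitosis, rose by 2.09 ± 0.14, and Cdca3, an adaptor that promotes mitotic entry, by 3.79 ± 0.12.

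All 10 tested spindle and centrosome genes rose, by 1.11 to 4.09 on the log2 scale (median 3.12). The largest difference of this role, under each alternative run too, was that of Aspm, a protein of the spindle poles, at 2.27, 1.62 and 2.04 on the DDC injury arrays and -2.01, -2.21 and -2.04 on the no-injury arrays (4.09 ± 0.23, adjusted p = 0.00156 in limma). Tpx2, which activates Aurka on the spindle, rose by 3.82 ± 0.14, and by 3.35 at its other probe. The microtubule-bundling protein Nusap1 rose by 3.77 ± 0.15 and Ckap2l by 3.75 ± 0.19. Dlgap5, or HURP, which stabilises kinetochore fibres, rose by 3.28 ± 0.11 (2.63 at its other probe), Hmmr, a spindle assembly factor, by 2.96 ± 0.12, and Ckap2, a microtubule stabiliser, by 2.07 ± 0.13. Tacc3 and Ckap5 work together on kinetochore fibres, yet their differences were of unlike size. Tacc3 was at 2.40, 2.54 and 2.27 against -0.46, -0.46 and -0.47 and rose by 2.87 ± 0.12. Ckap5, or ch-TOG, a microtubule polymerase also active in interphase, was at 3.06, 2.66 and 2.90 against 1.69, 1.80 and 1.77 and rose by 1.11 ± 0.16 (adjusted p = 0.0108), the smallest rise of this role. Stil, a centriole assembly protein that binds Plk4, rose by 1.69 ± 0.11.

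Gtse1, a microtubule regulator that also restrains p53, is the gene that could not be tested. Its only probe was at -0.79, -0.75 and -0.67 on the no-injury arrays, while its spot was marked as an outlier on all 3 DDC injury arrays and left out there. With the marked spots kept it was at -0.53, 0.85 and 0.50 on these, a difference of 1.01 ± 0.45 (adjusted p = 0.16 in limma). In the authors' values, which are not centred on the 75th percentile, it was at 10.78, 11.53 and 11.49 on the DDC injury arrays and at 10.23, 10.46 and 10.37 on the no-injury arrays. DDC injury replicate 1 was the lowest of its group on both scales.

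The 5 cytokinesis genes that were above background on all 6 arrays rose as well, by 2.63 to 4.10 on the log2 scale. Racgap1, a subunit of centralspindlin at the spindle midzone, was at 2.42, 2.13 and 2.41 on the DDC injury arrays and at -1.73, -1.81 and -1.76 on the no-injury arrays, and rose by 4.10 ± 0.14 (adjusted p = 0.000631 in limma). Its other probe differed by 3.85. Ect2, the exchange factor that centralspindlin recruits to activate RhoA, rose by 3.78 ± 0.13, Anln, the scaffold of the contractile ring, by 3.61 ± 0.17, and Prc1, which bundles midzone microtubules, by 3.09 ± 0.11. Cep55, which recruits the abscission machinery to the midbody, rose by 2.63 ± 0.18, and by 2.61 at its other probe. Citron kinase, Cit, a midbody protein, was the dim exception among these genes. It was at -6.76, -6.44 and -6.77 on the DDC injury arrays and was not well above background on any no-injury array, where it measured -8.34, -9.71 and -8.53. Set against the lowest signal well above background, it was at least 2-fold higher. Its fitted difference of 2.42 ± 0.42 (adjusted p = 0.018) rests on no-injury values below background, and Cit was tested only because its DDC injury arrays passed the filter, so this call is given as a description. It did not pass with normexp background correction (0.52, adjusted p = 0.15), in the authors' values (0.55, adjusted p = 0.0671) or without no-injury replicate 2 (1.78, adjusted p = 0.06).

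**Figure D3:**
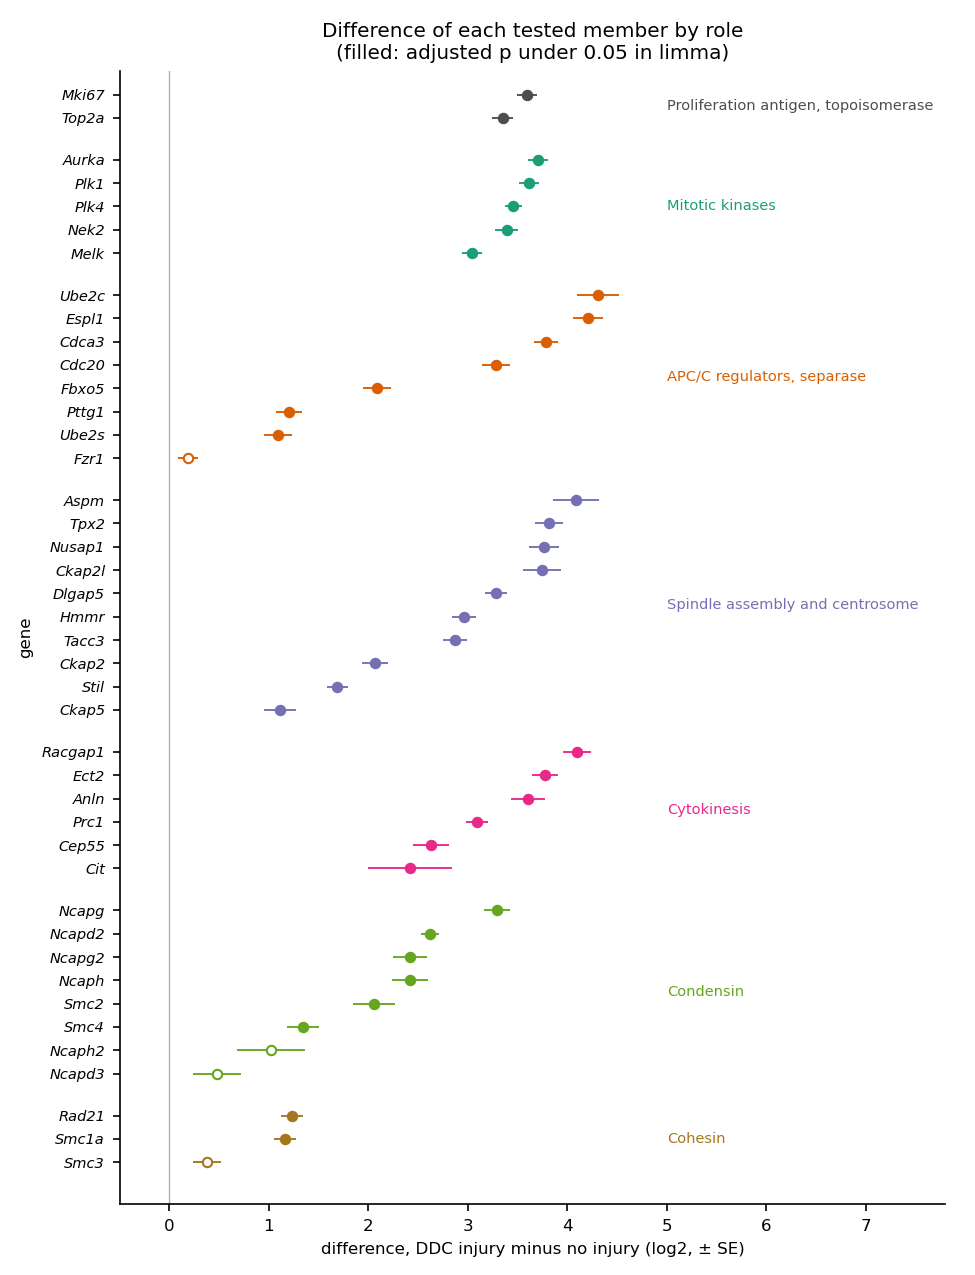
Log2 difference of each of the 42 tested genes (above 0, higher in the DDC injury group) with the standard error of the fit, coloured by role. Filled circles passed an adjusted p under 0.05 in limma and the 4 open circles (Fzr1, Ncaph2, Ncapd3 and Smc3) did not. The mitotic kinases lie between 3.04 and 3.71, while condensin runs from 0.48 to 3.29 and cohesin from 0.38 to 1.23.

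Of the 8 condensin genes 6 rose and 2 did not pass, with a median difference of 2.24. Condensin I and condensin II share the SMC subunits Smc2 and Smc4, and each has 3 subunits of its own. Smc2 was at 1.60, 2.13 and 1.60 on the DDC injury arrays and at -0.22, -0.33 and -0.25 on the no-injury arrays, and rose by 2.06 ± 0.21 (adjusted p = 0.00543 in limma). Smc4 was at 3.10, 3.38 and 2.98 against 1.86, 1.81 and 1.78 and rose by 1.34 ± 0.16 (adjusted p = 0.00711). All 3 subunits found only in condensin I, which reaches the chromosomes after the nuclear envelope opens, rose. Ncapg was at -1.81, -1.71 and -1.98 against -5.21, -5.08 and -5.15 and rose by 3.29 ± 0.13 (9.81-fold), the largest difference among the condensin genes except with normexp, where Ncapd2 (2.58) was above it. Ncapd2 rose by 2.62 ± 0.09 and the kleisin Ncaph by 2.42 ± 0.18, with adjusted p of 0.000684 and 0.0028.

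Of the 3 subunits found only in condensin II, which is nuclear throughout the cycle, 1 rose. Ncapg2 was at 0.51, 0.81 and 0.36 on the DDC injury arrays and at -1.84, -1.84 and -1.90 on the no-injury arrays, and rose by 2.42 ± 0.17 (adjusted p = 0.00234 in limma). Ncapd3 was at 1.49, 2.01 and 1.32 against 1.14, 1.11 and 1.16, a difference of 0.48 ± 0.24 that did not pass (adjusted p = 0.198), with 0.56 at its other probe. The kleisin Ncaph2 was at 1.39, 2.28 and 1.33 against 0.66, 0.62 and 0.67, a difference of 1.02 ± 0.34 that did not pass (adjusted p = 0.0859). At these probes DDC injury replicate 2 stood above the other arrays of its group. The other Ncapd3 probe (-0.14, 0.11 and -0.33) showed the same order, while the other Ncaph2 probe (1.32, 1.32 and 1.59) did not. Without that array Ncaph2 passed with a smaller difference (0.72, adjusted p = 0.00888), and it passed as the mean of its probes (1.33, adjusted p = 0.00863), the other of which differed by 1.64. Ncaph2 also passed with all 6 arrays as 6 samples (1.02, adjusted p = 0.0289) and with array weights (0.79, adjusted p = 0.014). Whether condensin I and condensin II subunits differ in their change was not tested.

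The 3 cohesin genes had the smallest median difference of any role, at 1.16, and did so under each alternative run. Rad21, the kleisin that separase cuts, was at 4.68, 4.88 and 4.74 on the DDC injury arrays and at 3.53, 3.56 and 3.49 on the no-injury arrays, and rose by 1.23 ± 0.11 (2.35-fold, adjusted p = 0.00405 in limma). Smc1a was at 3.90, 4.02 and 3.81 against 2.75, 2.76 and 2.75 and rose by 1.16 ± 0.11 (2.23-fold, adjusted p = 0.00459). Smc3, its partner in the ring, was at 3.22, 3.52 and 3.20 against 2.91, 2.94 and 2.94, a difference of 0.38 ± 0.14 (1.3-fold) that did not pass (adjusted p = 0.112). Its groups did not overlap, and it passed without DDC injury replicate 2 (0.28, adjusted p = 0.0431). It also passed with all 6 arrays as 6 samples (0.38, adjusted p = 0.0353) and with array weights (0.30, adjusted p = 0.0299).

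Among other genes of the same pathway, in lists written with earlier results of these data known, 59 of 118 tested were higher and 11 lower, with a median of 0.57. The shares to set beside this and each list below are the 17.7% higher and 15.8% lower among all genes. The chromosomal passenger complex and other mitotic kinases had 12 of 16 higher and 2 lower (median 1.60). Cdca8 (3.37 ± 0.11), the checkpoint kinase Ttk (3.03 ± 0.13) and survivin, Birc5 (3.58 ± 0.15) were among the rises, and Nek9 and Plk2 fell by 0.62 and 0.46. Aurkb of this list, at -7.46, -4.96 and -5.21 on the DDC injury arrays, did not pass (-0.02 ± 0.86, adjusted p = 0.986 in limma). Of 13 further cohesin subunits and regulators 8 rose and none fell (median 0.75). The shugoshins Sgo1 (4.26 ± 0.23) and Sgo2a (3.84 ± 0.09), which protect centromeric cohesin, and sororin, Cdca5 (3.23 ± 0.22), were among them. Of 3 tested meiotic cohesin subunits Stag3 (3.32 ± 0.18) and Smc1b (2.57 ± 0.16) rose. These are known mainly from germ cells, and whether the probes report the annotated transcripts here was not tested. Of the subunits of the anaphase promoting complex itself 5 of 14 were higher and 1 lower, with a median of 0.06, near the -0.07 of all genes. Anapc15 rose by 1.12 ± 0.12 and Anapc1 by 0.89 ± 0.11, while Anapc10 fell by 1.2.

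Of 15 cytokinesis and abscission genes outside the 43, 6 rose and 3 fell (median 0.23). The kinesins Kif20a (3.64 ± 0.09), Kif20b (2.81 ± 0.13) and Kif23 (2.30 ± 0.09) rose, and the non-muscle myosin Myh10 and the abscission genes Vps4a and Chmp4c fell by 3.65, 1.60 and 0.55. Centriole and centrosome genes had 2 of 10 higher, Cep192 (0.71) and Cep152 (0.91), a share close to that of all genes, and none lower (median 0.32). Gamma-tubulin and augmin genes, which nucleate spindle microtubules, had 7 of 15 higher and 1 lower (median 0.54), with Haus7 rising by 1.53 and Tubg1 by 1.09. Tubulins and stathmin had 5 of 10 higher and 1 lower (median 1.15): Tubb6 rose by 2.44 and Tubb2a fell by 1.03. In the chromosome structure list 4 of 6 rose (median 0.69), the chromokinesin Kif4 by 4.01 ± 0.12. Of 16 transcription regulators of mitotic genes, 8 rose and 3 fell (median 0.41). The activators Foxm1 (2.73 ± 0.13) and Mybl2 (3.09 ± 0.25) rose, as did the pocket protein Rbl1 (1.67 ± 0.15). Cdkn1a (1.09 ± 0.12) and Trp53 (0.92 ± 0.15), both of this list, rose too. Rbl2, the pocket protein of resting cells, fell by 1.01, Lin52 by 1.02 and Tfdp2 by 0.82.

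**Figure D4:**
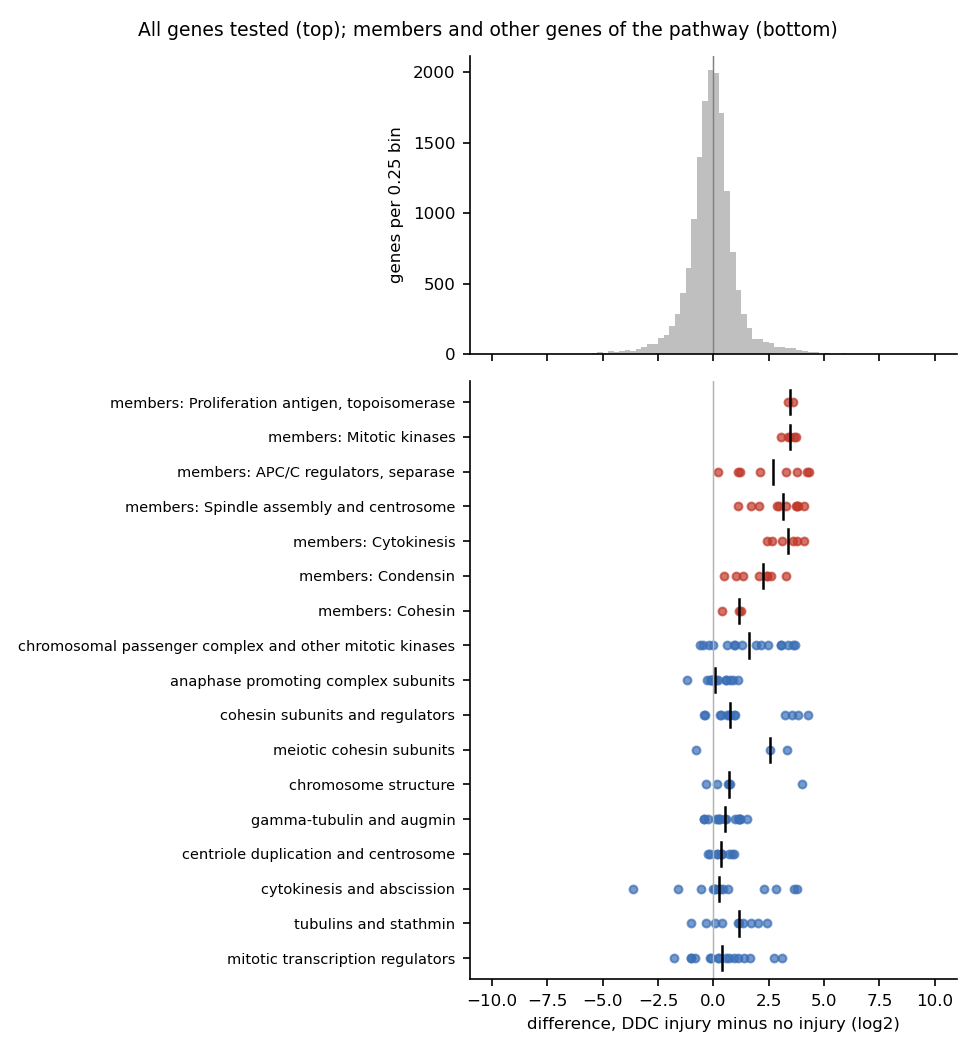
Top, number of genes per bin of 0.25 among all 15617 genes tested by their log2 difference (above 0, higher in the DDC injury group). Bottom, the difference of each of the 42 tested members by role (red) and of each other gene of the pathway by list (blue), with a black line at the median of the list. Every red point lies right of 0. The subunits of the anaphase promoting complex have a median of 0.06. The members' list of its regulators, which also holds separase, securin and Cdca3, has a median of 2.68.

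The genes differed in their order within the DDC injury group, a pattern noticed after the values were seen. In 7 of the 8 condensin genes DDC injury replicate 2 was the highest array of its group, with Ncapd2 as the exception, and replicate 2 lay above the mean of replicates 1 and 3 by 0.04 to 0.92 on the log2 scale (median 0.39). The highest of these is Ncaph2, whose other probe did not have replicate 2 on top. In all 3 cohesin genes it was the highest too, by a median of 0.17. In the other 31 genes it was the highest in 8, with a median of -0.10 and a range of -0.54 to 0.32. Among all genes called higher, replicate 2 was the highest in 41.7% with a median of 0.01. Other lists of the pathway had it on top often too: 7 of 10 tubulins and stathmin, 10 of 16 passenger complex and kinase genes, and 10 of 16 transcription regulators (12 of 16 with normexp). The count for condensin was 7 of 8 under normexp, quantile normalization and in the authors' values as well, while that for cohesin fell to 2, 1 and 1 of 3, with a median of -0.01 in the authors' values. Replicate 2 also differed from replicates 1 and 3 at large, by 17.9 and 16.6 times the spot noise over bright repeated probes, and the part of that in this pattern was not tested.

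**Figure D5:**
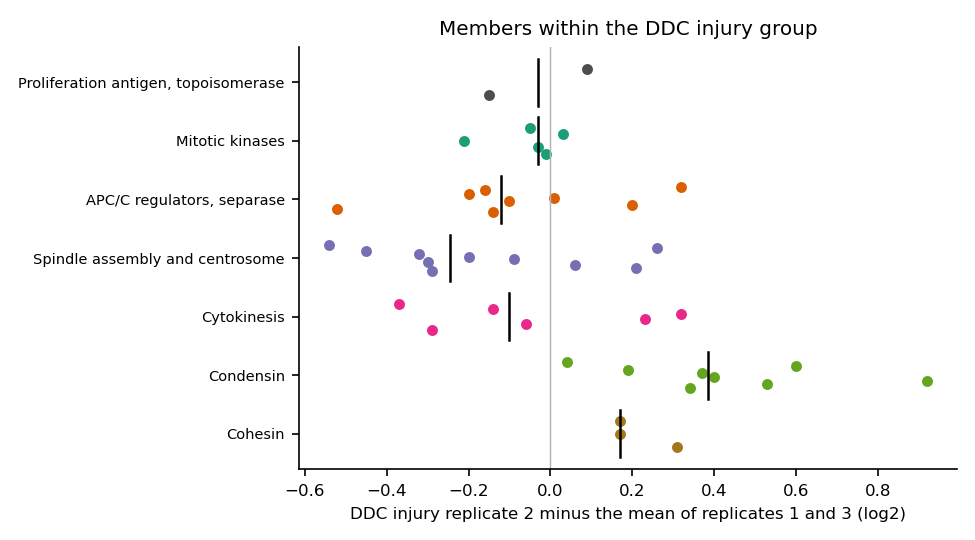
Level on the DDC injury replicate 2 array minus the mean level of DDC injury replicates 1 and 3, on the log2 scale, for each of the 42 tested genes by role, with a black line at the median. Points of condensin and cohesin lie right of 0, between 0.04 and 0.92, and points of the spindle genes have a median of -0.24.

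The calls depended on how the no-injury arrays were counted. When the 3 no-injury arrays entered as 1 averaged sample, 30 of the 42 genes were still higher, against 2.17% of all genes tested, while Ube2s, Pttg1, Ckap5, Smc2, Smc4, Ncaph, Smc1a and Rad21 no longer passed (adjusted p = 0.0521 to 0.112 in limma). The same 8 genes and Cit did not pass without no-injury replicate 2, which also leaves 1 no-injury sample, and 29 remained higher, against 2.3% of all genes. In both fits the spread comes from the DDC injury arrays alone, and the lone no-injury sample is assumed to vary as they do. With all 6 arrays counted as 6 samples, 40 were higher, Ncaph2 and Smc3 among them, against 24.6% of all genes. The scan of DDC injury replicate 1 was made on another day than all others. Without this array, 37 of 41 tested genes were higher with a median of 3.02, and Cit had too few arrays above background to be tested.

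Members with a TTTGAA match and a test numbered 24, of which 23 were higher, with differences of 0.48 to 4.31 (median 3.32). Of the 14 tested genes with a window and no match, 11 were higher, with differences of 0.19 to 3.77 (median 2.05). The 11 include Cit (2.42), which was tested only because its DDC injury arrays passed the filter. The ranges overlap widely: Plk4 (3.46), Nusap1 (3.77) and Nek2 (3.39) rose without the letters in their windows, and Ncapd3 (0.48), whose match lies at -249 in 1 of its 2 windows, did not pass. Among the 196 genes with a window that were called at least 8-fold higher, 36.7% held TTTGAA, and members are part of that set.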

How the data were processed

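RNA of 6 samples was hybridised to 1-colour (Cy3) arrays of 1 Agilent mouse design. The deposited scanner columns hold intensity from Feature Extraction 11.0.1.1, per the file headers: a processed signal, background-subtracted and detrended, and raw median signals of spot and local background. The authors' value table holds log2 values with equal quantiles (column medians 6.921 to 6.927), made with limma per the submitters' processing notes. Its starting column is not given in the sources used here.

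Probes were named through transcript accessions in the RefSeq table of GRCm38.p6. Of 39429 probes, 27234 had 1 symbol, 0 several and 12195 none. The arrays' annotation is of another build, so no probe is placed on the genome; promoter coordinates are RefSeq's. Spots marked as non-uniform or population outliers were left out, repeated spots averaged, and the log2 processed signal centred on the 75th percentile of its array. Of a gene's probes the brightest was used; 33 members had 1 probe and 10 had 2. Testing required 3 or more arrays well above background and 2 or more values in each group. The fit used lmFit and eBayes of limma 3.58.1 (R 4.3.3; prior degrees of freedom 1.35; two-sided tests), with Benjamini-Hochberg adjustment over 15617 genes and a threshold of 0.05. The fit was tested on simulated data. The number of arrays limits the precision.

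Members, lists, motifs and alternatives were chosen with earlier results of these data known. All 43 members are named, and of each other list of the pathway up to 3 genes each way with the smallest adjusted p. Aurkb, Cdkn1a and Trp53 are named besides these. Alternatives covered background correction (normexp, offset 50), scaling, the authors' values, filters, probe rule, sample counting, replicate and scan blocks, array weights and leaving out each array. Keeping marked spots was added after seeing that Gtse1 had no value.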

Additional observations from a re-analysis of the deposited data

How the results depend on the processing

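None of the 42 tested members was lower or changed sign under any alternative run. The count of members called higher was 38 in the main setting and lay between 29 and 41 over all alternatives. The median difference of members was 2.67 with normexp, 2.74 in the authors' values, 2.95 with quantile normalization, 2.96 when probes of 1 gene were averaged and with marked spots kept, and 3.04 with only probes above background on all 6 arrays; it was 2.97 to 3.08 when 1 array was left out. Counts over all genes moved more: 340 higher and 201 lower with the no-injury arrays averaged, where fewer samples enter the fit, and 4396 and 4174 with array weights, where 41 members were higher; the cause of the latter was not tested. Leaving out 1 array gave 351 to 3726 higher and 165 to 3207 lower, the lowest without no-injury replicate 2, and 1744 and 1582 without DDC injury replicate 3. Normexp shifted the median of all genes from -0.07 to 0.07. The scan as a random block, at a correlation of 0.176, left 38 members higher. As no scan run held both groups, this fit cannot remove a scan effect from the group difference. With the replicate number as a block (replicate block, all 6 arrays) 38 members were higher, and 2839 genes higher and 2726 lower in all, against 3849 and 3626 without the block. Same-numbered arrays of the groups correlated in their deviations by 0.117, 0.018 and 0.121, and differently numbered ones by -0.145 to 0.019. The numbers were not taken as pairs in the main fit, and whether same-numbered arrays share an effect was not tested. Cit was not tested where a DDC injury array was left out, since its probe was then above background on fewer than 3 arrays.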
